A study of Arabidopsis thaliana with 9 samples.

Results

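The HD-ZIP III and HAM meristem regulators, 8 genes of Arabidopsis thaliana that act in meristems, leaf polarity and vascular tissue, were followed through the small RNA and RNA-seq counts of the dxo1-2 mutant. They are the 5 class III homeodomain leucine zipper (HD-ZIP III) genes PHB (AT2G34710), PHV (AT1G30490), REV (AT5G60690), CNA (AT1G52150) and ATHB8 (AT4G32880), and the 3 HAIRY MERISTEM (HAM) genes HAM1 (AT2G45160), HAM2 (AT3G60630) and HAM3 (AT4G00150). They were chosen by identifier as targets of the microRNAs miR165, miR166 and miR171, and all 8 were found among the 37184 genes of the count tables. Small RNA was sequenced from 3 dxo1-2 and 3 wild-type (Col-0) libraries, and total RNA with ribosomal RNA removed from 3 dxo1-2 libraries. The plants were described as 21-day-old seedlings, sown on soil, kept for 2 days at 4 °C and then grown in a day of 16 h light and 8 h dark, and the replicates as biological. The mutant is represented by 1 line, named by its allele of DXO1, a gene for an enzyme that removes certain caps from RNA; no further allele or agent is named in either genotype. The RNA-seq libraries are of dxo1-2 alone, so levels of the mRNAs were not compared between genotypes here.

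HD-ZIP III proteins are transcription factors that specify the upper (adaxial) side of the leaf, the shoot meristem and the vascular strands. Their mRNAs carry a site for miR165 and miR166, which ARGONAUTE1 uses to cut them and which ARGONAUTE10 binds and withholds in the meristem. HAM proteins belong to the GRAS family, keep the shoot meristem undifferentiated together with WUSCHEL and are targeted by miR171, whose site in their mRNAs is nearly perfectly complementary to it. Small RNA counts on such a gene can come from the microRNA itself, from siRNAs made after cutting or from fragments of the mRNA, and the deposited gene counts do not separate these by size, strand or position.

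The small RNA libraries, with TMM factors of 1.07 to 1.16 in dxo1-2 and 0.852 to 0.915 in Col-0, held 5022945 to 5698185 counts on genes in dxo1-2 and 3976221 to 4393015 in Col-0, and the RNA-seq libraries 60138933 to 71210737. DXO1 (AT4G17620) had 60, 46 and 57 small RNA counts in dxo1-2 and 26, 45 and 21 in Col-0, and 108, 76 and 113 RNA-seq counts in dxo1-2. Its small RNA log2 fold change was 0.15 ± 0.28 (SE, edgeR adjusted p = 0.667), and small RNA does not check the genotype label. In edgeR's quasi-likelihood test with Benjamini-Hochberg adjustment, 26.8% of the 11534 tested genes were higher in dxo1-2 and 23% lower, 49.8% in either direction, and among tested protein-coding genes 40.5% and 17.1%. The groups of libraries did not overlap for 31.1% of tested genes in the higher and 27.1% in the lower direction. The share of calls that were higher depended on the scaling. It was 53.8% with TMM, 85.3% with library totals (totals scaling), 93.2% with every line of the table as library size (all-lines scaling), 67.7% with TMM factors taken from pseudogenes (pseudogene-based scaling) and 23.1% with factors taken from small nuclear RNA genes (snRNA-based scaling). The tested genes had a median log2 fold change of -0.019 with TMM, 0.32 with totals, 0.55 with all-lines, 0.11 with pseudogene-based and -0.66 with snRNA-based scaling, so the changes of single genes are also given relative to that median. Tested protein-coding genes, the class of all 8 members and of the lists beside them, had a higher median of 0.48 with TMM, and the members were also set against it. That median depended on the count level and was -0.076 among genes averaging 50 counts or more. As for the tissue of these seedlings, 4 leaf markers summed to 7339 to 8689 CPM (counts scaled to 1000000 gene counts) in the RNA-seq libraries and 6 flower markers to 0.665 to 1.30 CPM. The small RNA of the leaf markers summed to 1031 to 1281 CPM in dxo1-2 and 245 to 558 CPM in Col-0, and its part in the results was not tested. The 4 root markers summed to 167 to 194 CPM of RNA-seq, most of it from 1 gene. Of the 4, 2 (RHD6 and RSL4) had no RNA-seq count, while the root and hypocotyl glucosidase gene PYK10 had 178 ± 14.1 CPM. PYK10 overlaps AT3G09250 in the RefSeq annotation. Of 2 senescence markers SAG12 had no RNA-seq count, and SAG13 had 9.17 ± 2.90 CPM of RNA-seq in dxo1-2 and 6, 4 and 5 small RNA counts in dxo1-2 against 0 in each Col-0 library, whose part in the results was not tested. In bulk tissue a smaller number of meristem or vascular cells and less RNA per cell cannot be told apart.

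Of the 3 HAM genes, 1 (HAM3) was called higher in dxo1-2 and 2 (HAM1 and HAM2) lower in edgeR with TMM scaling. The shares were 26.8% and 23% of all tested genes, and 40.5% and 17.1% of tested protein-coding genes. The sign of the HAM3 value turned with snRNA-based scaling and those of HAM1 and HAM2 with all-lines scaling. HAM3 had 553, 425 and 501 small RNA counts in dxo1-2, against 232, 183 and 188 in Col-0. As CPM with TMM scaling these were 85.6, 78.5 and 87.8 in dxo1-2 and 65.2, 48.7 and 50.7 in Col-0. Every dxo1-2 library was above every Col-0 library.

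HAM3 averaged 84.0 ± 4.84 CPM in dxo1-2 and 54.9 ± 9.02 CPM in Col-0 (SD, n = 3 each). The log2 fold change was 0.62 ± 0.11 (SE), and it passed the edgeR test at an adjusted p of 0.000797. HAM3 stayed called under each leave-one-out, at log2 fold changes of 0.51 to 0.73. With snRNA-based scaling its log2 fold change was -0.034 (adjusted p = 0.887), while relative to the median of all tested genes it lay 0.36 to 0.78 higher under all 17 alternatives. Against the median of tested protein-coding genes HAM3 lay 0.13 higher on the log2 scale with TMM. Among genes averaging 50 counts or more, where that median was -0.076, it lay 0.84 higher. HAM3 lay above the median of tested protein-coding genes in 15 of 17 alternatives. It lay below it in 2, at -0.0022 without Col-0 replicate 2 and -0.32 without Col-0 replicate 3.

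HAM1 had 259, 194 and 270 small RNA counts in dxo1-2 and 238, 167 and 189 in Col-0. As CPM these were 40.1, 35.8 and 47.3 in dxo1-2 and 66.9, 44.4 and 51.0 in Col-0, so that dxo1-2 replicate 3 lay above Col-0 replicate 2 and the groups overlapped. The mean was 41.1 ± 5.79 CPM in dxo1-2 and 54.1 ± 11.6 CPM in Col-0. Its log2 fold change of -0.39 ± 0.15 passed narrowly with TMM scaling (edgeR adjusted p = 0.0464), was not called in 10 of 17 alternatives and turned to 0.18 with all-lines scaling. Among these the call was lost when replicate 1 of Col-0 (adjusted p = 0.182) or replicate 1 (0.104) or 2 (0.163) of dxo1-2 was left out, and with DESeq2 (0.0777) and limma-voom (0.0538).

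HAM2 had 234, 203 and 230 counts in dxo1-2 and 246, 167 and 197 in Col-0. As CPM these were 36.2, 37.5 and 40.3 in dxo1-2 and 69.2, 44.4 and 53.1 in Col-0, with no overlap. HAM2 averaged 38.0 ± 2.08 CPM in dxo1-2 and 55.6 ± 12.5 CPM in Col-0. With TMM scaling HAM2 fell by 0.55 on the log2 scale (SE 0.14, edgeR adjusted p = 0.00763), while the log2 fold change was -0.21 with totals scaling (adjusted p = 0.281) and 0.029 with all-lines scaling (0.869). HAM1 lay 0.23 to 0.65 and HAM2 0.38 to 0.80 below the median of all tested genes on the log2 scale under all 17 alternatives. With TMM their difference from the median of tested protein-coding genes was -0.88 for HAM1 and -1.03 for HAM2, and it was negative for both under all 17. Among genes averaging 50 counts or more, where that median was -0.076, the differences were smaller, at -0.17 for HAM1 and -0.32 for HAM2.

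**Figure D1:**
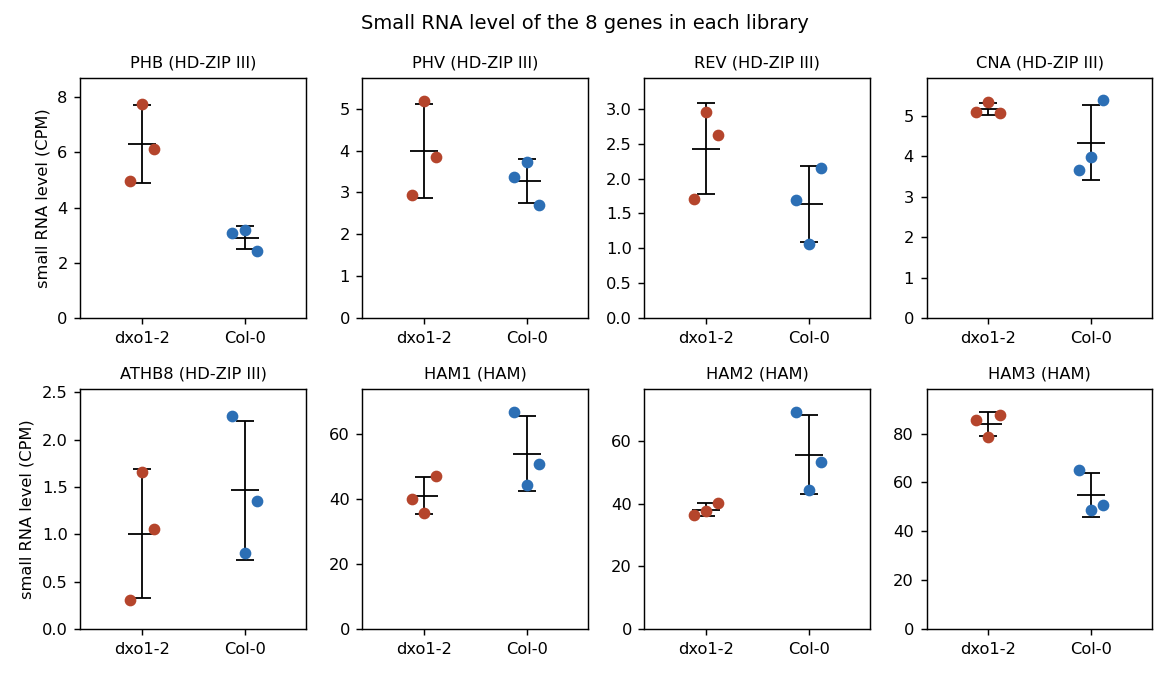
Small RNA level of each of the 8 genes in CPM with TMM scaling, in dxo1-2 (left) and Col-0 (right) libraries. Points are libraries, and bars give the mean and SD of 3. The dxo1-2 points lie above all Col-0 points for PHB and HAM3 and below them for HAM2, an order that rests on this scaling, since the fitted log2 fold change of HAM3 is -0.034 with snRNA-based scaling and that of HAM2 is 0.029 with all-lines scaling.

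Ratios between the 3 genes within a library do not depend on the scaling. The highest of the 3 HAM counts, not divided by gene length, was 2.36, 2.19 and 2.18 times the lowest in dxo1-2, against 1.06, 1.10 and 1.05 times in Col-0, where the 3 genes had nearly equal counts. The HAM1 to HAM2 count ratio was 1.11, 0.956 and 1.17 in dxo1-2 and 0.967, 1 and 0.959 in Col-0, so the 2 genes stayed within 1.17 times of each other in both genotypes. HAM3 carried 2.24, 2.14 and 2.00 times the mean of HAM1 and HAM2 in dxo1-2, against 0.959, 1.10 and 0.974 times in Col-0.

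As a share of the counts of the 3 HAM genes, HAM3 took 52.9%, 51.7% and 50.05% in dxo1-2 and 32.4%, 35.4% and 32.8% in Col-0. The means were 51.5% ± 1.42 in dxo1-2 and 33.5% ± 1.64 in Col-0 (SD, n = 3 each), a difference of 17.4 to 19.0 percentage points when any 1 library was left out. Pooled over libraries the share was 51.6% of 2869 counts in dxo1-2 (95% interval 49.7% to 53.4%) and 33.4% of 1807 counts in Col-0 (31.2% to 35.6%); these exact binomial intervals, like the others here, cover counting error only.

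HAM3 stood apart from its relatives in dxo1-2 libraries and not in Col-0 libraries. The CPM of HAM3 minus the mean CPM of HAM1 and HAM2 was 47.5, 41.9 and 43.97 in dxo1-2, against -2.81, 4.26 and -1.35 in Col-0. The sum of the 3 genes was 162, 152 and 175 CPM in dxo1-2 and 201, 138 and 155 CPM in Col-0, which overlapped.

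The HAM genes are relatives, and all 6 small RNA tables listed 0 reads as aligned to more than 1 place, so the tables do not say whether a read that matches several genes was counted at each. Elsewhere in the tables SPL13A and SPL13B, a pair of near-identical miR156 targets, had 53, 48 and 49 counts (SPL13A) and 50, 48 and 47 counts (SPL13B) in dxo1-2, and 78, 36 and 49 (SPL13A) and 78, 36 and 48 (SPL13B) in Col-0, although their RNA-seq levels in dxo1-2 were 5.68 ± 0.837 and 0.0453 ± 0.0115 CPM. SPL13A overlaps AT5G50565 in the RefSeq annotation, which had 50 summed small RNA counts in dxo1-2 and 6 in Col-0. Whether the near-equal HAM counts of Col-0 are shared reads was not tested, nor whether the values of HAM1 and HAM2 are separate measurements.

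**Figure D2:**
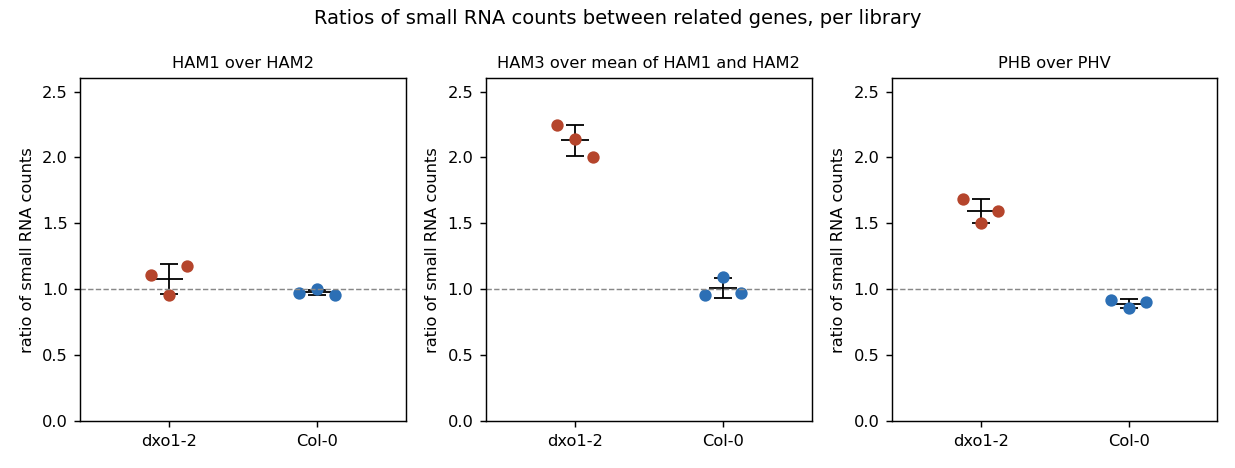
Ratios of small RNA counts within each library, dxo1-2 left and Col-0 right, for HAM1 over HAM2, HAM3 over the mean of HAM1 and HAM2, and PHB over PHV. Points are libraries, bars the mean and SD of 3, and the dashed line marks equal counts. HAM3 stands at 2.00 to 2.24 times the mean of the others in dxo1-2 and at 0.959 to 1.10 times in Col-0.

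The HD-ZIP III genes carried few small RNA counts, 97, 124 and 107 over all 5 genes in dxo1-2 libraries and 50, 48 and 52 in Col-0 libraries. Of the 5 genes 3 passed the expression filter, and of these 1, PHB, was called higher and 0 lower in edgeR. The shares were 26.8% and 23% of all tested genes, and 40.5% and 17.1% of tested protein-coding genes. At unadjusted p under 0.05 the lower count was also 0, as it was with DESeq2 and limma-voom.

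PHB, which acts in embryo patterning and on the adaxial side of the leaf, had 32, 42 and 35 counts in dxo1-2, against 11, 12 and 9 in Col-0. In CPM this was 4.96, 7.76 and 6.13 in dxo1-2 and 3.09, 3.19 and 2.43 in Col-0, with no overlap. It averaged 6.28 ± 1.41 CPM in dxo1-2 and 2.90 ± 0.416 CPM in Col-0, a log2 fold change of 1.10 ± 0.33 (SE, edgeR adjusted p = 0.0144).

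The filter, 2.12 CPM of unscaled library size in at least 3 libraries, admitted PHB through all 3 dxo1-2 and 2 Col-0 libraries. The call was lost without dxo1-2 replicate 2 (log2 fold change 0.93, adjusted p = 0.0665) and under snRNA-based scaling (0.47, adjusted p = 0.302). Relative to the median of all tested genes PHB lay 0.84 to 1.25 higher on the log2 scale in all 16 alternatives that tested it, and relative to the median of tested protein-coding genes 0.10 to 0.66 higher.

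PHV, the closest relative of PHB, had 19, 28 and 22 counts in dxo1-2 and 12, 14 and 10 in Col-0. Its levels of 3.99 ± 1.12 CPM in dxo1-2 and 3.26 ± 0.523 CPM in Col-0 overlapped, with a log2 fold change of 0.28 ± 0.35 (edgeR adjusted p = 0.536). The count ratio of PHB to PHV, which needs no scaling, was 1.68, 1.5 and 1.59 in dxo1-2 and 0.917, 0.857 and 0.900 in Col-0. PHB took 33.2% ± 0.606 of the HD-ZIP III counts in dxo1-2 libraries and 21.4% ± 3.88 in Col-0 libraries, and pooled 33.2% of 328 in dxo1-2 (95% interval 28.2% to 38.6%) and 21.3% of 150 in Col-0 (15.1% to 28.8%), intervals that overlap.

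CNA, a regulator of the shoot meristem and vasculature also known as ATHB15, had 33, 29 and 29 counts in dxo1-2 and 13, 15 and 20 in Col-0. It averaged 5.18 ± 0.153 CPM in dxo1-2 and 4.35 ± 0.922 CPM in Col-0, with overlap, and its log2 fold change of 0.25 ± 0.30 did not pass (edgeR adjusted p = 0.504). PHV and CNA were called higher with all-lines scaling, at 0.84 (adjusted p = 0.0492) and 0.82 (0.0280), and had negative log2 fold changes with snRNA-based scaling, at -0.35 and -0.38. Both lay below the median of tested protein-coding genes in all 16 alternatives that tested them.

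REV, needed for axillary meristems and interfascicular fibres, had 11, 16 and 15 counts in dxo1-2 and 6, 4 and 8 in Col-0, too few to pass the filter as reported. Its summed counts, scaled for depth, stood in a ratio of 1.46 dxo1-2 over Col-0 (95% exact binomial interval 0.824 to 2.70). REV overlaps AT5G60700 in the RefSeq gene table, which had 28 summed counts in dxo1-2 and 5 in Col-0, and reads of this overlap cannot be assigned with certainty. ATHB8, a marker of procambium, had 2, 9 and 6 counts in dxo1-2 and 8, 3 and 5 in Col-0, a ratio of 0.666 (0.317 to 1.41). For REV and ATHB8 a difference was not detectable at this depth.

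**Figure D3:**
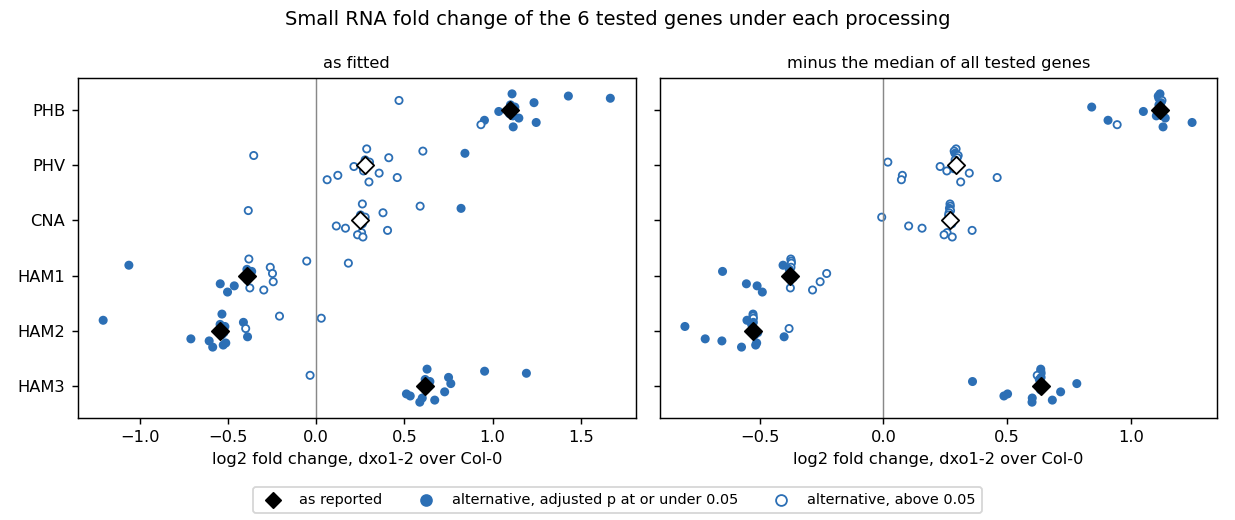
Log2 fold change, dxo1-2 over Col-0, of the 6 tested genes under each processing. Diamonds give the values as reported and circles the alternatives, filled at an adjusted p at or under 0.05; the left panel shows fitted values and the right panel the same minus the median of all tested genes. In the right panel PHB and HAM3 lie above 0 and HAM1 and HAM2 below 0 under every alternative shown; against protein-coding genes alone, not drawn, HAM3 lies below their median in 2 of 17 alternatives.

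In the dxo1-2 RNA-seq libraries all 8 genes were detected, with 237 to 1744 counts per library. PHB had 16.7, 18.1 and 17.2 CPM, PHV 20.3, 22.4 and 20.8, REV 16.2, 15.8 and 15.3, CNA 24.5, 23.9 and 23.1, and ATHB8 10.95, 12.3 and 10.6 CPM. The 3 libraries were close to each other for each HD-ZIP III gene, with SDs of 0.453 to 1.09 CPM. HAM1 had 21.1, 21.6 and 19.7 CPM, HAM2 17.7, 18.4 and 13.2 CPM, and HAM3 3.67, 5.99 and 3.68 CPM. HAM2 was lowest in replicate 3 and HAM3 highest in replicate 2. These CPM are not divided by gene length, and between 50.9% and 51.8% of the gene counts were nuclear, the rest being plastid and mitochondrial.

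The small RNA level of each gene was also set against its own RNA-seq level in dxo1-2, a ratio of CPM not divided by length. Gene length enters the RNA-seq side, and the small RNA side only as far as its reads come from along the mRNA and not from a microRNA site. HAM3 had 18.9 CPM of small RNA per CPM of RNA-seq, with 13.1 for the lowest small RNA over the highest RNA-seq library and 23.9 for the reverse. HAM1 had 1.98 (1.66 to 2.41) and HAM2 2.32 (1.97 to 3.06). PHB had 0.362 (0.273 to 0.464), CNA 0.217 (0.207 to 0.232), PHV 0.189 (0.132 to 0.255), REV 0.154 (0.105 to 0.193) and ATHB8 0.0893 (0.0251 to 0.157).

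The ranges of the 3 HAM genes lay above those of all 5 HD-ZIP III genes, and the range of HAM3 above those of HAM1 and HAM2. The median over 17226 protein-coding genes with at least 1 CPM of RNA-seq was 0.0804, with quartiles of 0.0403 and 0.194. HAM3 stood at the 99.5th percentile, HAM1 and HAM2 at the 96.7th and 97.1st, PHB at the 85.3rd and the other HD-ZIP III genes between the 53.8th and the 77.3rd. The assays were different libraries with their own scaling, so the ratio is a description and gives no amount.

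**Figure D4:**
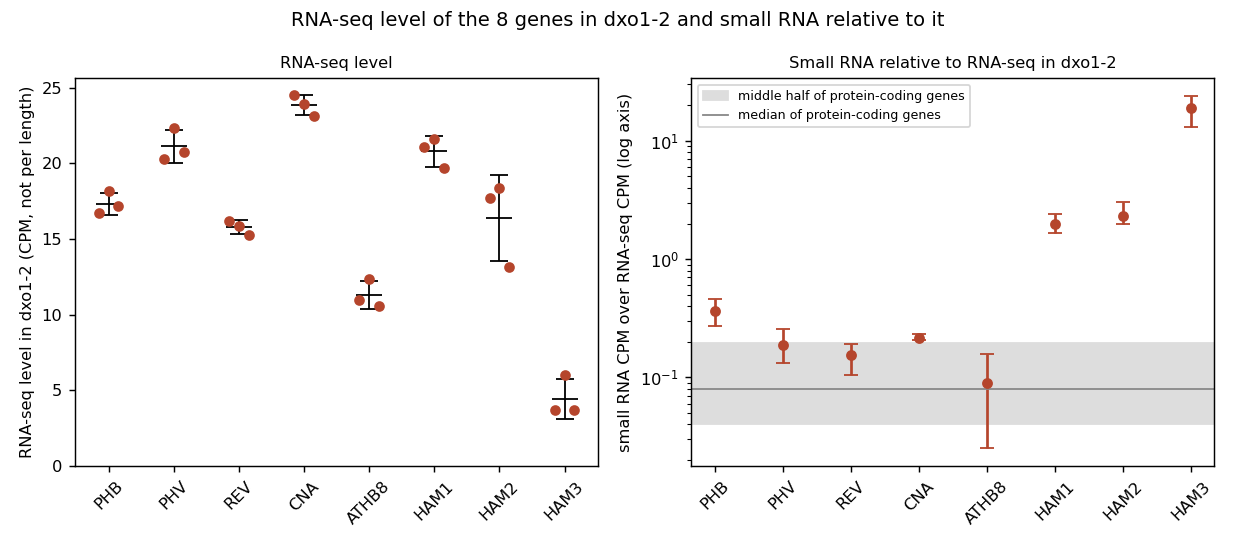
Left, RNA-seq level in dxo1-2 of the 8 genes in CPM, not divided by gene length, with points for libraries and bars for the mean and SD of 3. Right, mean small RNA CPM over mean RNA-seq CPM in dxo1-2 on a log axis, with bars from the lowest to the highest ratio of any pair of libraries and a band for the quartiles of 17226 protein-coding genes. HAM3 stands at 18.9, HAM1 and HAM2 at 1.98 and 2.32, and the HD-ZIP III genes at 0.0893 to 0.362.

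Family relatives that are not known targets of these microRNAs were described beside them. Of 18 other GRAS genes 8 were tested, and 7 of them were higher and 0 lower in dxo1-2, beside 40.5% and 17.1% of tested protein-coding genes, a count that was the same under each of the 5 other scalings and 3 among genes with a mean of 50 counts or more. The filter admitted 5 of the 8 through the dxo1-2 libraries without all Col-0 libraries. Their median log2 fold change was 2.06, against 0.48 for tested protein-coding genes and -0.019 for all tested genes, and the entry of 5 of the 8 through the libraries where they are high leaves the count and the median as a description of the tested genes.

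HAM4 (AT4G36710), the HAM relative without a miR171 site, had 32, 39 and 47 small RNA counts in dxo1-2 and 4, 0 and 0 in Col-0. Its log2 fold change was 4.12 ± 0.67 (edgeR adjusted p = 0.000338), and the difference from HAM1, HAM2 or HAM3 was not tested. RGA, GAI and RGL1, DELLA repressors of gibberellin response, rose with log2 fold changes of 2.78 ± 0.21, 2.04 ± 0.20 and 1.93 ± 0.51 in edgeR. SHR, a mobile regulator of root radial patterning, and its partner SCR rose with log2 fold changes of 3.32 ± 0.31 and 2.02 ± 0.42, and SCL8 with 2.08 ± 0.31. SCL14, a regulator of detoxification genes, had a log2 fold change of 0.07 ± 0.30.

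Of 15 HD-ZIP IV genes, which act in the epidermis, 4 were tested, of which 1 rose and 1 fell, beside 40.5% and 17.1% of tested protein-coding genes. Among the 4, the filter admitted 2 through the dxo1-2 libraries without all Col-0 libraries. PDF2, which maintains epidermal identity, rose to 6.93 ± 1.18 CPM in dxo1-2, against 2.99 ± 0.0865 CPM in Col-0 (log2 fold change 1.21 ± 0.30, edgeR adjusted p = 0.00574). HDG9 fell to 20.0 ± 2.92 CPM in dxo1-2, against 36.4 ± 2.51 CPM in Col-0. Its mRNA was near absent in dxo1-2, at 0.0187 ± 0.0324 CPM of RNA-seq. The PDF2 call was lost under snRNA-based scaling (adjusted p = 0.207) and the HDG9 call under all-lines scaling (0.108).

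Partners and opponents of the HD-ZIP III proteins came next. Of 16 listed genes 15 were in the tables and 8 were tested, of which 4 rose and 1 fell, a split close to the 40.5% and 17.1% of tested protein-coding genes. Their median log2 fold change was 1.17. The filter admitted 5 of the 8 through the dxo1-2 libraries without all Col-0 libraries. Of the genes that rose, ZPR1, YAB3 and KAN3 reached the filter level in 0 Col-0 libraries and AS1 in 1. This leaves the higher count, the median and these rises as a description of the tested genes. ZPR1, a LITTLE ZIPPER protein that binds HD-ZIP III proteins into inactive dimers, had 16, 22 and 18 counts in dxo1-2 and 2, 1 and 3 in Col-0 (log2 fold change 2.50 ± 0.51, edgeR adjusted p = 0.00160). YAB3, an abaxial YABBY factor, rose with a log2 fold change of 2.14 ± 0.43, and AS1, a MYB factor that restrains meristem genes in leaves, with 1.72 ± 0.45; AS1 overlaps ACT1 in the RefSeq table.

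KAN3, of the KANADI family that specifies the abaxial side, had 58 summed counts in dxo1-2 and 3 in Col-0, a depth-scaled ratio of 12.1 (95% exact binomial interval 3.95 to 60.5). ARF4, an abaxial auxin response factor and trans-acting siRNA target, fell to 25.1 ± 2.79 CPM in dxo1-2, against 38.7 ± 2.37 CPM in Col-0. That call was lost with totals scaling (adjusted p = 0.132) and all-lines scaling (0.763). The others tested, KAN2, YAB5 and ARF3, did not pass, with log2 fold changes of 0.62, -0.12 and -0.83.

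Of 17 genes of the shoot meristem and cambium 5 were tested, 4 of which rose and 1 fell, at a median of 2.72 on the log2 scale, beside 40.5% and 17.1% of tested protein-coding genes. The filter admitted 4 of the 5 through dxo1-2 without all Col-0 libraries. CLV1, WOX5 and HAM4 reached the filter level in 0 Col-0 libraries and PXY in 2. This leaves the count, the median and these rises as a description of the tested genes. CLV1, the receptor kinase that limits stem cell number, rose to 13.6 ± 1.02 CPM in dxo1-2, against 1.71 ± 0.524 CPM in Col-0 (edgeR adjusted p = 6.8e-06). WOX5, a stem cell factor of the root, and HAM4, which is also in the GRAS list, rose too. PXY, the cambium receptor kinase, had 66, 183 and 34 counts in dxo1-2 and 12, 14 and 9 in Col-0, with the highest count in replicate 2, and its log2 fold change of 2.37 ± 0.61 was not called with limma-voom (adjusted p = 0.0638). KNAT2, a KNOX homeobox gene, fell to 4.90 ± 1.05 CPM in dxo1-2, against 10.8 ± 3.85 CPM in Col-0, a call lost with all-lines scaling (edgeR adjusted p = 0.122). WUS and CLV3, which define the stem cell niche, had 4 and 0 small RNA counts in dxo1-2, 2 and 1 in Col-0 and no RNA-seq count in dxo1-2.

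Among 8 known REV targets and related HD-ZIP II genes 3 were tested and 2 rose, beside 40.5% of tested protein-coding genes. All 3 were admitted through dxo1-2 libraries, with 0 Col-0 libraries at the filter level. This leaves the count and the rises as a description of the tested genes. HAT22 rose to 10.5 ± 1.01 CPM in dxo1-2, against 1.09 ± 0.304 CPM in Col-0, and WRKY53, a senescence regulator that overlaps another gene in the RefSeq table, to 4.64 ± 1.93 CPM, against 0.736 ± 0.595 CPM in Col-0. HAT3 did not pass (log2 fold change 0.85 ± 0.43, edgeR adjusted p = 0.121). Of the 3 protochlorophyllide reductase genes, of which HAM proteins repress PORC, PORB and PORC were tested, with log2 fold changes of -0.18 ± 0.16 and 0.33 ± 0.46 that did not pass (adjusted p = 0.367 and 0.582); both overlap other genes in the RefSeq table, as does DCL1.

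In the microRNA and siRNA pathway 4 of 12 genes were tested, of which 1 rose and 1 fell, beside 40.5% and 17.1% of tested protein-coding genes. Among the 4, the filter admitted 1 through the dxo1-2 libraries without all Col-0 libraries. AGO1 rose to 195 ± 11.2 CPM in dxo1-2, against 41.7 ± 1.83 CPM in Col-0 (log2 fold change 2.22 ± 0.085, edgeR adjusted p = 1.4e-09). AGO10, the decoy for miR165 and miR166, had 13, 11 and 19 counts in dxo1-2 and 4, 5 and 5 in Col-0, with no overlap, and did not pass (0.93 ± 0.43, adjusted p = 0.0880). DCL1, which cuts microRNAs from their precursors, had 0.26 ± 0.16 (0.192). DCL4, which makes secondary siRNAs, had 32, 32 and 30 counts in dxo1-2 and 53, 30 and 26 in Col-0. Its log2 fold change was -0.89 ± 0.31 (adjusted p = 0.0312), a call lost in 7 alternatives, among them those that left out replicate 1 of Col-0 (0.168) or replicate 1 (0.0875), 2 (0.0590) or 3 (0.0846) of dxo1-2.

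Of 39 other microRNA targets 27 were tested, with 6 higher and 6 lower and a median log2 fold change of 0.22. These counts are near the 26.8% and 23% of all tested genes, and the higher one is below the 40.5% of tested protein-coding genes. The counts were 14 and 1 with all-lines scaling, 11 and 3 with totals scaling and 6 and 12 with snRNA-based scaling. Of the 27 tested targets, 5 were admitted by the filter through the dxo1-2 libraries without all Col-0 libraries. This leaves the higher count as a description of the tested genes. The smallest adjusted p values after AGO1 were those of ARF6, which rose with a log2 fold change of 1.81 ± 0.26, and AFB2, an auxin receptor gene that fell by 0.61 (SE 0.092) with TMM scaling and lost its call with totals scaling (adjusted p = 0.0762) and all-lines scaling (0.781). ARF16, with the largest fall among the lower targets, had a log2 fold change of -2.07 (edgeR adjusted p = 0.00028). It kept its call in all 16 alternatives that tested it. Of the 6 lower calls 4 were SPL genes, SPL6, SPL11, SPL13A and SPL13B, whose calls were lost without Col-0 replicate 1. SPL6, which overlaps CRC in the RefSeq annotation, had 19, 14 and 17 counts in dxo1-2 and 62, 12 and 17 in Col-0, where replicate 1 stood apart. The number of targets called lower was 2 without Col-0 replicate 1 or any 1 of the dxo1-2 replicates, and 10 without Col-0 replicate 3.

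**Figure D5:**
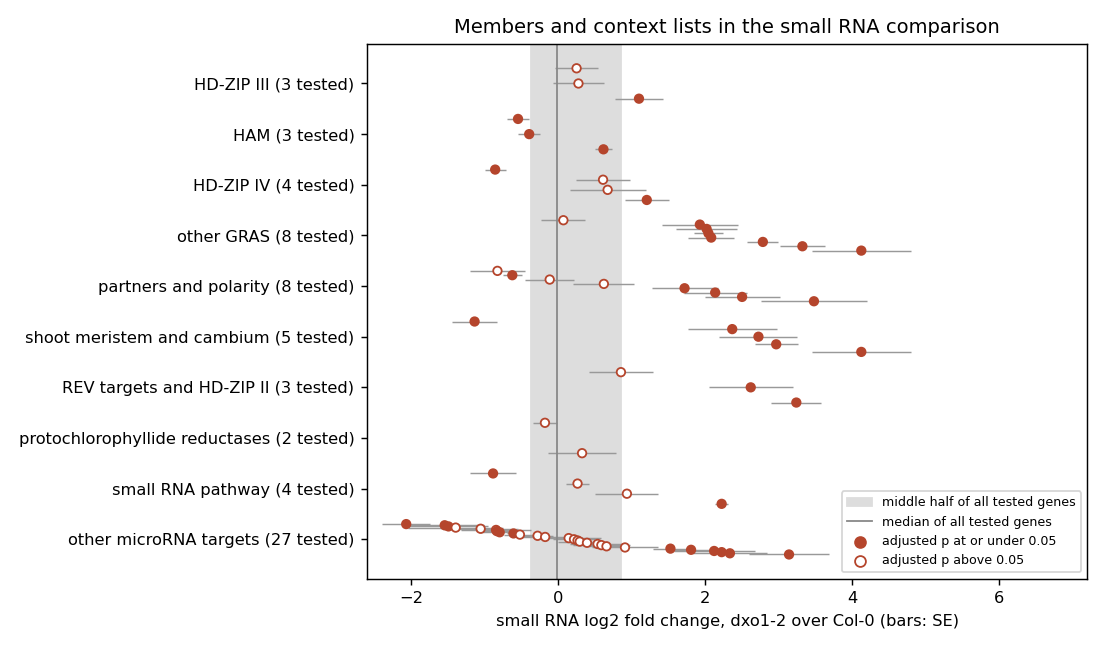
Small RNA log2 fold change, dxo1-2 over Col-0, of the tested HD-ZIP III and HAM genes and of the tested genes of each context list, with bars for the SE. Filled points passed at an adjusted p of 0.05, the grey band spans the quartiles of all tested genes and the grey line their median of -0.019. HAM3 at 0.62 and the pair HAM1 and HAM2 at -0.39 and -0.55 lie on opposite sides of it, while 7 of 8 other GRAS genes lie at 1.93 or above.

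In the dxo1-2 RNA-seq libraries the genes of the context lists spanned wide ranges of CPM, not divided by gene length. They ran between KAN4 at 0.442 ± 0.268 and ARF4 at 26.9 ± 0.546 among partners and polarity genes, and between WUS and CLV3 at 0 and CLV1 at 38.9 ± 1.06 in the meristem and cambium list. Among REV targets and HD-ZIP II genes they ran between YUC5 at 0.335 ± 0.0724 and WRKY53 at 39.0 ± 3.44. PORA had 41.3 ± 4.47 and PORB 698 ± 12.9 CPM, HDG3 had 0 and PDF2 75.2 ± 2.05, and LAS had 0.160 ± 0.0670 and RGA 76.8 ± 4.01. SDN1 had 4.64 ± 0.186 and AGO1 72.5 ± 5.89 CPM, and SPL13B and PHO2, at the ends of the other microRNA targets, had 0.0453 ± 0.0115 and 76.0 ± 3.22.

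Genes with the most similar course over the 6 small RNA libraries were looked up for the member of each family with the highest mean small RNA CPM, among 1969 protein-coding genes with 50 counts or more on average. The likeness was the root mean square difference of log2 CPM centred over the 6 libraries. For HAM3 the nearest were AT5G35760, AT4G05632 and AT4G26730, at 0.113, 0.126 and 0.133 on the log2 scale. AT5G35760 averaged 17.7 ± 1.69 CPM in dxo1-2 and 11.9 ± 1.91 CPM in Col-0, and AT4G26730 569 ± 6.75 CPM in dxo1-2 and 390.2 ± 6.05 CPM in Col-0. All 3 were called higher in edgeR with TMM scaling, beside 40.5% of tested protein-coding genes. They were picked from these same libraries for likeness to HAM3, so their calls add nothing to its own. All 3 stood at 0.152 CPM of RNA-seq or less in dxo1-2. For CNA the nearest were AT3G32330, AGT and AT2G07634, at 0.0856, 0.100 and 0.104. AGT, the peroxisomal alanine:glyoxylate aminotransferase of photorespiration, averaged 14.002 ± 1.57 CPM in dxo1-2 and 11.7 ± 2.96 CPM in Col-0. None of the 3 was called, which likewise follows from choosing them for likeness to CNA, itself not called.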

How the data were processed

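The data were 1 table of raw counts per gene for each of 9 libraries, as the authors deposited them, with 5 summary lines that name no gene and stayed out of the tests. The submitters' processing notes name bedtools, Bowtie, DESeq2, HISAT2 and HTSeq beside the build TAIR10; their roles, settings and versions are not given in the sources used here, nor is the strand rule of counting, so a gene and an overlapping or antisense partner cannot be told apart. In the small RNA tables reads without a feature made up 62.6% ± 0.816 of all lines in dxo1-2 and 67.6% ± 1.20 in Col-0. Symbols and overlapping genes came from the RefSeq table of TAIR10.1, which matched 36899 identifiers and differs from the build of the counts by name. Its coordinates were used only to find overlapping genes, and no gene lengths were used. Where genes are set side by side by CPM, the values are not per length. MicroRNA loci and ZPR4 were not analysed here.

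Libraries were grouped by their titles. Small RNA counts were tested with edgeR 4.0.16 (R 4.3.3): TMM scaling, filterByExpr (which kept 11534 genes), glmQLFit and glmQLFTest with genotype as the only term, two-sided, with Benjamini-Hochberg adjustment at 0.05. Fold changes are given as log2 of dxo1-2 over Col-0, and their ± is the absolute value over the square root of F. CPM used TMM-scaled library sizes; 1 count was worth 0.155 to 0.185 CPM in dxo1-2 and 0.266 to 0.281 CPM in Col-0. RNA-seq CPM used the sum of gene counts, without a test. Likeness used log2(CPM + 0.5). The fit was first tested on simulated counts. There it called 66% of genes given a log2 change of 1 and 83% of those given 2, in the right direction. Of genes left unchanged it called 0.044%. The simulation changed 100 of 11534 genes by each amount, up and down alike, while 49.8% of tested genes were called in the data. These rates therefore do not carry over to the data, and they do not probe the choice of scaling.

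Named were the 8 members, of each context list the called genes with the smallest adjusted p (at most 3, and all of a count of 5 or fewer) and those with the highest and lowest mean RNA-seq CPM, and the 3 genes most like the member with the highest mean in each family. RGL1, SCR, SCL8, SCL14, SPL6, SPL11, SPL13A, SPL13B, ARF16, HAT3, PORB, PORC, AGO10, DCL1, WUS, CLV3, KAN2, YAB5 and ARF3 were named after their values were seen, and the ratios within a family and the median of protein-coding genes were chosen then too. The members and lists were chosen with earlier results of these data known. The alternatives were 5 other scalings (RLE, library totals, all table lines, small nuclear RNA genes, pseudogenes), leaving out rRNA and tRNA genes, 2 other count filters, DESeq2 1.42.0, limma-voom (limma 3.58.1), a replicate block and leaving out each library. The plan to give RNA-seq levels per coding length or gene span was dropped, since no table of the build of the counts gives lengths.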

Additional observations from a re-analysis of the deposited data

How the results depend on the processing

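Of the 6 tested members under 16 or 17 alternatives each, HAM3 kept its call in 16, HAM2 and PHB in 14 and HAM1 in 7, while PHV and CNA kept their side of the threshold in 14 each. Under snRNA-based scaling the log2 fold changes were 0.47 for PHB, -0.35 for PHV, -0.38 for CNA and -0.034 for HAM3. Under all-lines scaling they were 0.84 for PHV, 0.82 for CNA, 0.18 for HAM1 and 0.029 for HAM2. Under totals scaling HAM1 was at -0.053 and HAM2 at -0.21, and among genes averaging 50 counts or more, where PHB, PHV and CNA were not tested, HAM1 was at -0.25 and HAM2 at -0.40. HAM1 was at -0.38 with RLE scaling, DESeq2 and limma-voom and -0.26 with pseudogene-based scaling. Leaving out each library gave 0.93 to 1.25 for PHB, 0.06 to 0.46 for PHV, 0.11 to 0.40 for CNA, -0.54 to -0.24 for HAM1, -0.71 to -0.39 for HAM2 and 0.51 to 0.73 for HAM3. The share differences were 17.4 to 19.0 percentage points for HAM3 and 9.69 to 13.5 for PHB, alternatives chosen after seeing the data. The scalings set the level against which all genes are read by construction; for the other calls that changed the cause was not tested.

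Over all genes 3093 were higher and 2651 lower as reported, 4703 and 809 under totals scaling, 6828 and 502 under all-lines scaling, 1878 and 6244 under snRNA-based scaling, 3664 and 1752 under pseudogene-based scaling, 1435 and 1286 among genes averaging 50 counts or more, where fewer genes were tested, and 2576 to 3645 and 1974 to 3109 with 1 library left out. Of the 58 tested genes of the context lists 23 were higher and 10 lower as reported. Under all-lines scaling 37 were higher and 1 lower, among genes averaging 50 counts or more 7 and 3, and lower were 5 under totals, 18 under snRNA-based and 5 under pseudogene-based scaling and 5 to 15 with 1 library left out (23 to 25 higher).

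Same-numbered libraries of the genotypes had correlations of their deviations of 0.111, -0.095 and -0.035. No pairing by number was seen in them, and with 3 libraries a genotype they cannot exclude one. With a replicate block the log2 fold changes were 1.10 for PHB (adjusted p = 0.0257), -0.39 for HAM1 (0.0282), -0.53 for HAM2 (0.00720) and 0.62 for HAM3 (0.000459), with 2913 genes higher and 2571 lower, and the block changed no call of a member.

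With nuclear genes as library size the dxo1-2 RNA-seq levels were 33.7 CPM for PHB, 41.1 for PHV, 30.7 for REV, 46.4 for CNA, 21.9 for ATHB8, 40.4 for HAM1, 31.9 for HAM2 and 8.63 for HAM3. With 1 library left out they were 16.9 to 17.6 for PHB, 20.5 to 21.6 for PHV, 15.6 to 16.0 for REV, 23.5 to 24.2 for CNA, 10.8 to 11.6 for ATHB8, 20.4 to 21.4 for HAM1, 15.4 to 18.0 for HAM2 and 3.67 to 4.83 for HAM3. The 5 HD-ZIP III genes had 328 summed small RNA counts in dxo1-2 and 150 in Col-0, and REV and ATHB8 did not pass the filter as reported. Without a count filter their log2 fold changes were 0.58 for REV and -0.53 for ATHB8. REV was also tested without Col-0 replicate 1, 2 or 3 or without dxo1-2 replicate 1, at 0.29 to 0.77.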
